A study of Homo sapiens with 10 samples.

Results

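Messenger RNA decay in human cells usually starts at the poly(A) tail. Deadenylases shorten the tail, the decapping enzyme then removes the 5′ cap with the help of the LSM1-7 ring, and XRN1 digests the body from the 5′ end, while the RNA exosome digests it from the 3′ end. Nonsense-mediated decay removes transcripts with early stop codons, and the YTHDF proteins and several RNA-binding or adaptor proteins bring the deadenylases to chosen transcripts. The mRNA decay machinery was taken here as a list of 52 genes of these steps. They were picked by symbol and not by a cut on measured values, though with earlier results of these data known. The deposited tables hold 55889 gene IDs, and 51 of the 52 listed genes were matched to 1 of them, while the decapping cofactor DCP1A was not matched and is not analysed here. All 51 passed the filter on low values, among 10297 genes tested.

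The cells were KOPT-K1, an established human line of T-cell acute lymphoblastic leukaemia. They were given 25 nM silvestrol, a plant-derived inhibitor of the RNA helicase eIF4A that unwinds the 5′ end of mRNAs during initiation, or the solvent DMSO, for 45 minutes, and the labels name no genetic change in either group. Ribosome-protected fragments (footprints, the stretches of mRNA covered by a translating ribosome) were sequenced in 2 libraries per treatment and total RNA in 3 per treatment, 10 libraries in all. The labels do not tell whether replicates were grown separately, so each p-value reflects variation among libraries that may be only technical, and all cells are of 1 line. Levels are RPKM, reads normalised to transcript length and to the total of the library.

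Depth estimated from the steps between low values was 1.66 to 2.38 M reads in the footprint libraries and 127 to 216 M in the RNA libraries, with a median SD between replicates of 0.193 (silvestrol) and 0.175 (DMSO) on the log2 scale for footprints against 0.0471 and 0.0391 for RNA. Each RPKM is a share of its library, so a change common to all mRNAs, or fewer cells as against less RNA per cell, cannot be told apart in these values. The labelled cell type matched its markers: all 10 T-lineage genes were detected, with CD3D at a mean of 673 RPKM in silvestrol RNA and 675 RPKM in DMSO RNA. The B-cell genes MS4A1 and PAX5 were listed at 0 in every library, while CD79A, another B-cell gene, had 30.8 RPKM in silvestrol RNA and 32.0 RPKM in DMSO RNA.

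After 45 minutes of silvestrol the RNA of the decay genes lay within 0.19 of DMSO on the log2 scale, and their footprints lay on both sides of DMSO, with most deadenylase genes below it. The only member called in any comparison was YTHDF2, whose RNA rose by 0.17 on the log2 scale (limma, Benjamini-Hochberg adjusted p = 0.027), a call that was lost in 6 of 13 alternatives, among them 4 of the 6 that leave out 1 library (adjusted p 0.11 to 0.15). Translational efficiency is the footprint level relative to RNA. Its log2 change (silvestrol minus DMSO) was below 0 for every listed CCR4-NOT gene and all 4 genes grouped as other deadenylases. NOCT was lowest at -1.29 and CNOT11 next at -0.81. Under some other scalings or without 1 library, CNOT4, CNOT6 and CNOT6L stood just above 0. Of all genes tested 59.9% lay below 0, with a median of -0.08. Outside the list, 7 further genes of CCR4-NOT, its partners and deadenylases were tested, and 4 lay below 0 (median -0.11). Of the 10 exosome genes 7 stood above 0, though only 4 without DMSO footprint replicate 2, with EXOSC4 highest at +1.10. None of these single values passed an adjusted p of 0.05 in limma with the spread of each assay weighted separately.

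For RNA, 1 of the 51 members was called, against 0.282% of all genes tested (29 genes; on the higher side 28 genes, 0.272%), and for footprints none was called, against 0.0486% of all genes (5 genes). For translational efficiency none of the members was called by limma with weights per assay, against 0.107% of all genes (11 genes, 9 of them lower). At an unadjusted p under 0.05, the members numbered 6 in RNA (11.8%, against 9.23% of all genes), 5 in footprints (9.8%, against 6.98%) and 6 in translational efficiency (11.8%, against 7.38%). If both assays were given 1 shared spread, 6 members (11.8%, against 5.29% of all genes) would pass the adjusted threshold. On the lower side these were CNOT1, CNOT8, CNOT11 and NOCT (4 members, 7.84%, against 3.99% of all genes). On the higher side they were LSM5 and EXOSC4 (2 members, 3.92%, against 1.3%). That fit treats footprints as being as reproducible as RNA, which the spreads above do not bear out, so its calls are given as an alternative only. The median change in translational efficiency over the members was -0.08 on the log2 scale, with 30 of 51 below 0, and the median over all genes was also -0.08, with 59.9% below 0.

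**Figure D1:**
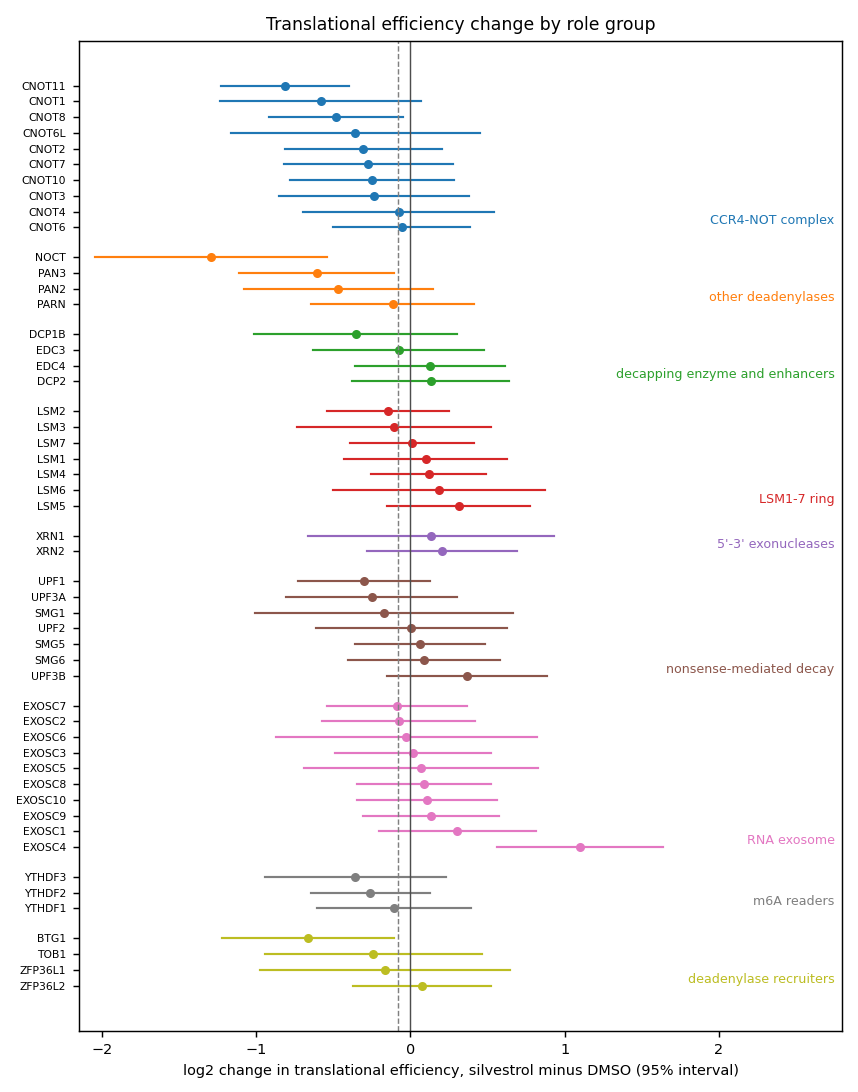
Log2 change in translational efficiency (silvestrol minus DMSO, horizontal axis) of the 51 decay genes by role group, as points with 95% intervals from limma with weights per assay. The dashed line is the median of all tested genes, -0.08, and the CCR4-NOT genes and other deadenylases all lie below 0 (in some alternatives CNOT4, CNOT6 or CNOT6L lie just above it) while 7 of 10 exosome genes lie above it (8 under other scalings, 4 without DMSO footprint replicate 2).

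Under DMSO the members spanned RNA levels of 3.33 RPKM for DCP1B, a cofactor of the decapping enzyme, to 229 RPKM for LSM4, a subunit of the LSM rings. The LSM genes had the highest group median among the groups of more than 2 genes, 28.5 RPKM in RNA and 47.4 RPKM in footprints. Footprints relative to RNA also had different medians by role: the log2 ratio had a median of 0.54 for the LSM genes and 0.21 for the exosome genes, against -0.94 for the nonsense-mediated decay genes and -0.43 for all genes tested. NOCT stood at 1.92, higher than 97.8% of all genes, with TOB1 at 1.33 and LSM7 at 1.27. At the other end CNOT7, a catalytic deadenylase, had 34.2, 37.0 and 34.8 RPKM of RNA in silvestrol and 36.0, 34.6 and 35.2 RPKM in DMSO, but footprints of 2.39 and 2.50 RPKM in silvestrol and 3.44 and 2.70 RPKM in DMSO. Its DMSO log2 ratio of -3.52 stood at percentile 1.22 of all genes tested. The coding part made up 12.4% of the CNOT7 transcript in GENCODE release 29, and RPKM over the whole transcript counts the untranslated bases as length. Over the 51 members the coding share and the DMSO ratio had r = 0.021 and rho = -0.113, across genes of the same libraries and as a description, and the part of length in the CNOT7 value was not tested. SMG5, SMG1 and CNOT6L followed CNOT7, with log2 ratios of -1.94, -1.88 and -1.75. SMG1 has near-identical pseudogene copies, so how its reads were assigned is uncertain.

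**Figure D2:**
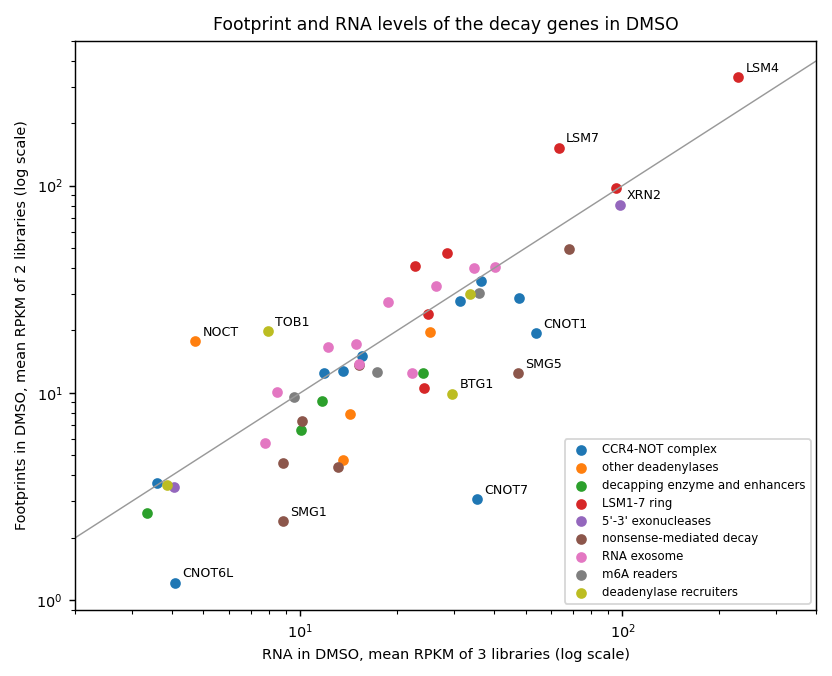
Mean footprint level (2 DMSO libraries, vertical axis) against mean RNA level (3 DMSO libraries, horizontal axis) of the 51 decay genes, both in RPKM on log scales, coloured by role, with the line of equal values. NOCT, TOB1 and LSM7 lie above the line, and CNOT7, SMG5, SMG1 and CNOT6L lie farthest below it.

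The CCR4-NOT complex is the main cytoplasmic deadenylase, built on the scaffold CNOT1. Its 10 listed genes had a median log2 change in translational efficiency of -0.29, and 8 of the 10 lay below the median of all genes. With libraries scaled to a common median or by quantiles, 9 of 10 were below 0, with CNOT6 at 0.008 under the first and CNOT4 at 0.02 under the second. Without silvestrol footprint replicate 2 it was 8 of 10, with CNOT6L at 0.03 and CNOT4 at 0.02, and without DMSO footprint replicate 1 it was 9 of 10. In RNA the log2 changes of these genes lay between -0.02 and 0.08. CNOT1 footprints were 12.5 and 13.1 RPKM in silvestrol, against 21.4 and 17.4 RPKM in DMSO. Both silvestrol libraries lay under both DMSO libraries, and CNOT1 RNA was level at 50.9, 55.1 and 56.5 RPKM in silvestrol and 53.2, 51.8 and 56.6 RPKM in DMSO. The log2 change in CNOT1 translational efficiency was -0.58 (SE 0.30, limma adjusted p = 0.71), with a 95% interval of -1.24 to 0.07.

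CNOT11, which with CNOT10 forms the module at the N-terminal end of CNOT1, had footprints of 17.7 and 22.4 RPKM in silvestrol, against 38.3 and 31.1 RPKM in DMSO. The groups did not overlap, and their means were further apart than the SD of either group (20.1 ± 3.32 RPKM in silvestrol, 34.7 ± 5.09 RPKM in DMSO, SD, n = 2 each). RNA of CNOT11 was 37.4, 37.4 and 37.2 RPKM in silvestrol and 36.9, 36.6 and 35.9 RPKM in DMSO, slightly higher in every silvestrol library. Its translational efficiency differed by -0.81 (SE 0.19, 95% interval -1.23 to -0.39), with a limma adjusted p of 0.23. CNOT10 itself, by contrast, had overlapping footprint values, 13.0 and 9.38 RPKM in silvestrol and 11.6 and 14.0 RPKM in DMSO.

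Of the 4 catalytic subunits, CNOT8 stood lowest relative to its error. Its footprints were 18.2 and 20.9 RPKM in silvestrol and 28.7 and 26.8 RPKM in DMSO, with no overlap, and the log2 change in translational efficiency was -0.48 (SE 0.20, limma adjusted p = 0.62). Its paralogue CNOT7 came to -0.27, and CNOT6 and CNOT6L, catalytic subunits of another nuclease family, to -0.06 and -0.36. CNOT6L rested on 11.0 to 30.1 estimated footprint reads a library, and its 95% interval ran from -1.17 to 0.45. CNOT2 and CNOT3, which form the NOT module with CNOT1, stood at -0.30 and -0.23, with non-overlapping footprints for CNOT2 alone. CNOT4, a ubiquitin ligase linked to the complex and its lowest member in RNA, had footprints of 3.97 and 3.44 RPKM in silvestrol and 3.91 and 3.44 RPKM in DMSO. Its RNA was higher in all 3 silvestrol libraries, at 3.81, 3.84 and 3.85 RPKM, against 3.75, 3.46 and 3.56 RPKM in DMSO, a log2 change of 0.08 (limma adjusted p = 0.61).

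Among the genes grouped here as other deadenylases, NOCT had the lowest value of all members. It is a rhythmically expressed member of the deadenylase fold family, and deadenylase activity was not measured here. NOCT footprints were 7.13 and 8.89 RPKM in silvestrol, against 16.5 and 19.1 RPKM in DMSO. Its RNA pointed the opposite way, at 5.18, 5.34 and 5.78 RPKM in silvestrol and 4.40, 4.95 and 4.81 RPKM in DMSO. Neither set of libraries overlapped. The log2 change was -1.11 in footprints (SE 0.21, limma adjusted p = 0.40), 0.18 in RNA (SE 0.05, adjusted p = 0.21) and -1.29 in translational efficiency (SE 0.35, 95% interval -2.05 to -0.54, adjusted p = 0.32). The footprint values rest on 42.5 to 93.7 estimated reads a library. In 18 alternatives the change in NOCT translational efficiency lay between -1.44 and -1.14, and it was called in 1 of them, the fit with 1 shared spread (adjusted p = 0.0068).

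PAN3, the adaptor that ties the nuclease PAN2 to poly(A)-binding protein, had footprints of 5.83 and 4.49 RPKM in silvestrol, against 7.36 and 8.52 RPKM in DMSO. These did not overlap, while PAN3 RNA lay between 14.0 and 14.8 RPKM in all 6 libraries, and translational efficiency differed by -0.61 (SE 0.23, limma adjusted p = 0.57). PAN2 had a similar size of difference, -0.47, but its libraries overlapped, at 3.98 and 2.63 RPKM in silvestrol and 3.57 and 5.95 RPKM in DMSO. PARN, a poly(A)-specific nuclease that also trims small RNAs and the most abundant of this group in RNA, had 18.0 and 18.2 RPKM of footprints in silvestrol and 20.9 and 18.3 RPKM in DMSO, and its translational efficiency differed by -0.12.

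The recruiters bring CCR4-NOT to its targets, ZFP36L1 and ZFP36L2 by binding AU-rich elements and BTG1 and TOB1 by binding the catalytic subunits. BTG1 footprints were 7.54 and 5.25 RPKM in silvestrol and 11.1 and 8.72 RPKM in DMSO, with RNA of 30.1, 31.8 and 30.6 RPKM in silvestrol and 28.6, 30.3 and 30.0 RPKM in DMSO. The footprint groups did not overlap and the RNA groups did, and translational efficiency differed by -0.66 (SE 0.26, limma adjusted p = 0.58). TOB1 had 1 low silvestrol library, 12.5 RPKM beside 23.0 RPKM, against 20.0 and 19.8 RPKM in DMSO, so its value of -0.24 rests on single libraries: it was 0.19 without silvestrol footprint replicate 1 and -0.67 without replicate 2. ZFP36L2, the most abundant recruiter, was level, with footprints of 34.5 and 29.4 RPKM in silvestrol and 30.9 and 28.8 RPKM in DMSO. ZFP36L1, the least abundant, spanned 3.40 and 2.36 RPKM in silvestrol and 4.96 and 2.25 RPKM in DMSO on as few as 19.3 estimated reads.

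**Figure D3:**
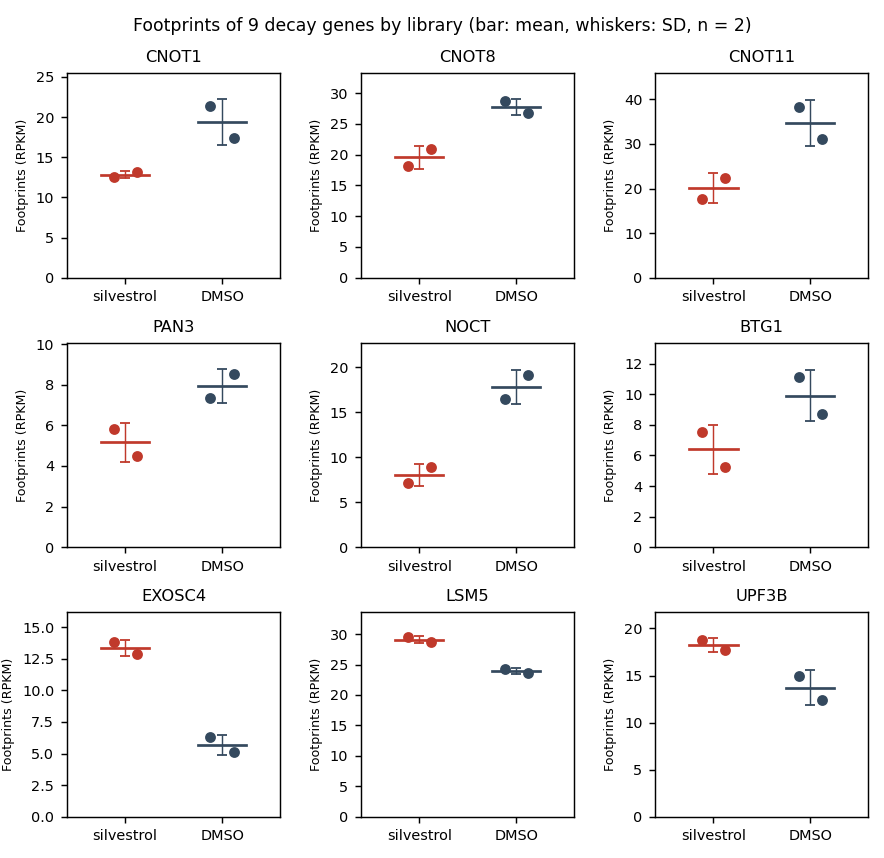
Footprint level in RPKM (vertical axis, from 0) of 9 decay genes in each library, silvestrol left and DMSO right, with the mean as a bar and the SD as whiskers (n = 2 each). In CNOT1, CNOT8, CNOT11, PAN3, NOCT and BTG1 both silvestrol libraries lie under both DMSO libraries, and in EXOSC4, LSM5 and UPF3B both lie above. Of all genes tested, 25.2% were lower in both silvestrol libraries and 13.1% higher in both.

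Downstream of the tail, the decapping genes showed no shared direction. The median log2 change in translational efficiency of the 4 measured genes was 0.03, with 2 below 0, and leaving out 1 footprint library moved it between -0.14 (without DMSO replicate 2) and 0.12 (without DMSO replicate 1). DCP2, the catalytic subunit, was the only member whose RNA was lower in all 3 silvestrol libraries, at 10.8, 11.2 and 11.0 RPKM, against 11.5, 11.4 and 12.1 RPKM in DMSO. That is 1 of 51 members (1.96%), against 3.99% of all genes, and the log2 change was -0.08 (SE 0.03, limma adjusted p = 0.51). EDC4, a scaffold of the decapping complex and the most abundant of these genes in RNA, had footprints of 13.1 and 14.3 RPKM in silvestrol and 13.2 and 11.6 RPKM in DMSO. DCP1B, the least abundant, had 1.88 and 2.20 RPKM in silvestrol and 2.72 and 2.53 RPKM in DMSO, which did not overlap but came from 19.3 to 28.4 estimated reads a library. EDC3, another enhancer of decapping, differed by -0.07 in translational efficiency with overlapping footprints.

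The LSM1-7 ring binds the shortened tail and promotes decapping, and LSM2 to LSM7 are shared with the nuclear ring of U6 RNA. Translational efficiency of its 7 genes had a median log2 change of 0.10, with 2 of 7 below 0, and of 0.007, with 3 below 0, without DMSO footprint replicate 2. LSM5 had footprints of 29.5 and 28.7 RPKM in silvestrol and 24.3 and 23.6 RPKM in DMSO, a clean separation between groups, with RNA of 24.2, 25.3 and 23.5 RPKM in silvestrol and 25.2, 24.7 and 25.0 RPKM in DMSO. Its translational efficiency differed by 0.31 (SE 0.21, limma adjusted p = 0.81, and 0.047 with 1 shared spread). LSM4, the most highly read gene of the whole list at 1650 to 2660 estimated footprint reads, had 369 and 364 RPKM in silvestrol and 337 and 329 RPKM in DMSO. LSM6, the least abundant LSM gene in RNA, had 46.0 and 47.2 RPKM in silvestrol and 44.5 and 37.2 RPKM in DMSO. The footprints of LSM4, LSM5 and LSM6 were thus higher in both silvestrol libraries, as were those of 13.1% of all genes tested. The 95% intervals of all 7 changes in translational efficiency include 0. LSM1, the subunit particular to the cytoplasmic ring, stood at 0.10 with overlapping footprints.

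XRN1 digests decapped mRNA in the cytoplasm and XRN2 acts in the nucleus, mainly on transcripts cut at the end of transcription. XRN2 had the higher level by far, with RNA of 93.7, 98.9 and 99.5 RPKM in silvestrol and 98.8, 94.4 and 101 RPKM in DMSO. Its footprints were 100 and 85.6 RPKM in silvestrol and 79.9 and 81.8 RPKM in DMSO, higher in both silvestrol libraries. XRN1 had RNA of 3.77, 3.84 and 4.01 RPKM in silvestrol and 3.83, 3.89 and 4.42 RPKM in DMSO, with overlapping footprints. The log2 changes in translational efficiency were 0.20 for XRN2 and 0.14 for XRN1, with 95% intervals of -0.29 to 0.69 and -0.67 to 0.94.

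Nonsense-mediated decay turns on the helicase UPF1, its adaptors UPF2, UPF3A and UPF3B, the kinase SMG1 that phosphorylates UPF1, and the effectors SMG5 and SMG6. The 7 genes split, with 3 below 0 and a median log2 change in translational efficiency of 0.006. That median was -0.18, with 4 below 0, without silvestrol footprint replicate 1, and -0.002, -0.03 and 0.07 without DMSO replicates 1 and 2 and silvestrol replicate 2. UPF1, the most abundant, had footprints of 44.0 and 38.6 RPKM in silvestrol, against 51.9 and 47.4 RPKM in DMSO, with no overlap and RNA of 67.3 to 71.5 RPKM in all 6 libraries. UPF3B, which binds the exon junction complex, lay on the other side, at 18.8 and 17.7 RPKM in silvestrol and 15.0 and 12.4 RPKM in DMSO. The changes in translational efficiency were -0.30 for UPF1 and 0.37 for UPF3B, with limma adjusted p-values of 0.80 each. UPF2 had higher RNA in every silvestrol library, 10.9, 11.2 and 10.7 RPKM, against 10.1, 9.78 and 10.4 RPKM in DMSO (log2 change 0.11, SE 0.04, limma adjusted p = 0.30), and footprints that overlapped. SMG6, an endonuclease and the least abundant of the group in RNA, had 8.71, 8.75 and 8.87 RPKM of RNA in silvestrol and 8.65, 8.80 and 8.96 RPKM in DMSO. Its footprints were 5.17 and 4.67 RPKM in silvestrol and 4.63 and 4.57 RPKM in DMSO, higher in both silvestrol libraries but by less than the SD within them.

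The RNA exosome has a ring of EXOSC4 to EXOSC9, a cap of EXOSC1, EXOSC2 and EXOSC3, and the nuclease EXOSC10. Its 10 genes had a median log2 change in translational efficiency of 0.08, with 3 below 0 and 9 above the median of all genes. Other scalings left 2 below 0, but without DMSO footprint replicate 2 the median was -0.02, with 6 below 0. EXOSC4, the ring subunit with the least RNA of the complex, had footprints of 13.8 and 12.9 RPKM in silvestrol, against 6.27 and 5.13 RPKM in DMSO. The groups are far apart relative to their spread (13.4 ± 0.64 RPKM in silvestrol, 5.70 ± 0.81 RPKM in DMSO, SD, n = 2 each), while EXOSC4 RNA was 8.22, 7.97 and 8.23 RPKM in silvestrol and 7.57, 8.05 and 7.63 RPKM in DMSO. The log2 change was 1.17 in footprints (SE 0.21, limma adjusted p = 0.40) and 1.10 in translational efficiency (SE 0.25, 95% interval 0.55 to 1.64, adjusted p = 0.20). Those footprints come to only 12 to 46.2 estimated reads a library. The EXOSC4 change in translational efficiency was called in 2 of 18 alternatives, with 1 shared spread (adjusted p = 0.0046) and without the filter on low values (adjusted p = 0.020).

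Among the rest of the exosome, EXOSC1, of the cap, came next at 0.30 in translational efficiency, with footprints of 10.6 and 14.5 RPKM in silvestrol and 10.5 and 9.80 RPKM in DMSO. It was 0.52 without silvestrol footprint replicate 1 and 0.09 without replicate 2. EXOSC9, the most abundant exosome gene in RNA, had footprints of 46.0 and 42.0 RPKM in silvestrol and 44.4 and 36.4 RPKM in DMSO. EXOSC5 was the least reproducible, at 31.1 and 55.2 RPKM in silvestrol and 50.5 and 29.2 RPKM in DMSO. The other 6 subunits had log2 changes between -0.09 and 0.11. Whether EXOSC4 differs from its ring partners was not tested.

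The YTHDF proteins read N6-methyladenosine (m6A), a mark on mRNA, and YTHDF2 recruits CCR4-NOT to marked transcripts. All 3 had more RNA in every silvestrol library than in any DMSO library, as did 8.97% of all genes tested. YTHDF2 RNA was 40.2, 41.1 and 40.5 RPKM in silvestrol, against 35.9, 35.8 and 36.1 RPKM in DMSO, a rise of 0.17 on the log2 scale (SE 0.03, limma adjusted p = 0.027) larger than the spread within either group. YTHDF3 RNA was 11.2, 10.7 and 10.4 RPKM in silvestrol, against 9.43, 9.32 and 9.86 RPKM in DMSO, the same log2 size of 0.17 with a larger error (SE 0.04, adjusted p = 0.13). YTHDF1 RNA was 18.8, 18.1 and 17.8 RPKM in silvestrol and 17.5, 17.4 and 17.1 RPKM in DMSO, a log2 change of 0.07 (adjusted p = 0.54).

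The YTHDF2 call was not kept in every alternative, although the size of the change hardly moved. It was made in 7 of 13 alternatives, with adjusted p-values from 0.014 to 0.25, and the log2 change stayed between 0.16 and 0.18 throughout. The adjusted p was 0.15 without silvestrol RNA replicate 3 and 0.13, 0.12 and 0.11 without DMSO RNA replicates 1, 2 and 3. It was 0.25 without the filter on low values and 0.053 with the replicate as a block. In footprints the groups overlapped: YTHDF2 had 29.0 and 27.9 RPKM in silvestrol and 27.0 and 33.8 RPKM in DMSO, and YTHDF3 9.28 and 7.42 RPKM in silvestrol and 10.7 and 8.49 RPKM in DMSO. The changes in translational efficiency of YTHDF1, YTHDF2 and YTHDF3 were -0.11, -0.26 and -0.36, each with a 95% interval that includes 0.

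**Figure D4:**
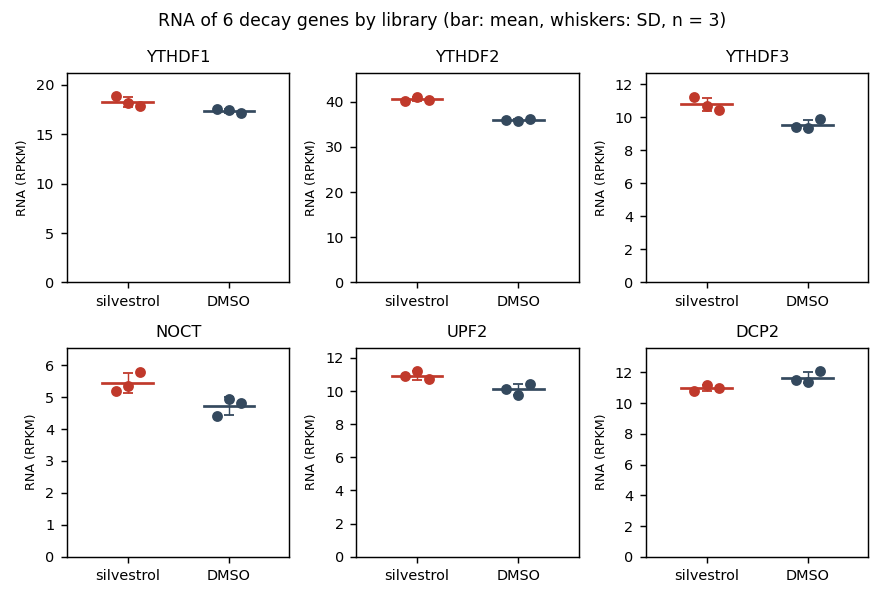
RNA level in RPKM (vertical axis, from 0) of 6 decay genes in each library, silvestrol left and DMSO right, with the mean as a bar and the SD as whiskers (n = 3 each). All silvestrol libraries lie above all DMSO libraries in YTHDF1, YTHDF2, YTHDF3, NOCT and UPF2 and below them in DCP2, and YTHDF2 is the gene that was called. Of all genes tested, 8.97% were higher in every silvestrol library and 3.99% lower in every one.

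Across the list, RNA was higher in every silvestrol library than in any DMSO library for 8 of 51 members (15.7%, against 8.97% of all genes), which were CNOT4, CNOT11, NOCT, UPF2, EXOSC2 and the 3 YTHDF genes. Footprints were lower in both silvestrol libraries for 13 members (25.5%, against 25.2% of all genes) and higher in both for 8 members (15.7%, against 13.1%). Those footprint shares are close to the background, and nothing is read from them about the list. The lower genes were CNOT1, CNOT2, CNOT7, CNOT8, CNOT11, PAN3, PARN, NOCT, BTG1, DCP1B, UPF1, UPF3A and SMG1, and the higher genes were LSM4, LSM5, LSM6, XRN2, UPF3B, SMG6, EXOSC1 and EXOSC4.

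The companion genes, 57 further factors of the same steps such as other decapping enhancers, exosome cofactors and microRNA effectors, served as a wider view of the pathway. Of the 54 tested, limma called 0 in RNA, 0 in footprints and 0 in translational efficiency with weights per assay, and 3, 3 and 4 had an unadjusted p under 0.05. Their median log2 change in translational efficiency was -0.03, with 28 of 54 below 0. For the companions of CCR4-NOT and the deadenylases it was -0.11, with 4 of 7 below 0. With 1 shared spread 4 of the 54 companions were called: HNRNPD, PABPC1 and PABPC4 on the lower side and PNRC2 on the higher side. PABPC4, a cytoplasmic poly(A)-binding protein, had footprints of 19.7 and 19.8 RPKM in silvestrol, against 32.4 and 28.6 RPKM in DMSO, with RNA level at 45.8 to 46.9 RPKM in all libraries. Its translational efficiency differed by -0.63 (SE 0.17, limma adjusted p = 0.31 with weights per assay and 0.0068 with 1 shared spread). PABPC1, its more abundant relative, which has many pseudogene copies, had footprints of 27.2 and 25.9 RPKM in silvestrol and 32.0 and 35.7 RPKM in DMSO, and differed by -0.36. HNRNPD, which binds AU-rich elements, differed by -0.42, with 84.6 and 89.4 RPKM in silvestrol and 116 and 115 RPKM in DMSO. PNRC2, a decapping activator, differed by 0.57 on only 5.39 to 15.2 estimated footprint reads.

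Since eIF4A acts on the 5′ untranslated region (UTR), the 5′ UTRs of the members were described from GENCODE release 29 (GRCh38), 1 transcript a gene. That transcript was picked by annotation tags and coding length, and whether these cells express it was not checked. The median length was 324.5 nt for CCR4-NOT, 172.5 nt for the other deadenylases, 332 nt for the recruiters, 218.5 nt for the decapping genes and 227 nt for the LSM genes. It was 106.5 nt for XRN1 and XRN2, 145 nt for nonsense-mediated decay, 60.5 nt for the exosome and 354 nt for the YTHDF genes, against 194 nt for all genes with an annotation. The median changes in translational efficiency of these groups ran from -0.54 for the other deadenylases to 0.17 for XRN1 and XRN2. EXOSC3 had the shortest at 13 nt and CNOT3 the longest at 1583 nt. Of the 17 members with over 300 nt, 15 had a translational efficiency change below 0, against 59.9% of all genes tested, of any length. The share below 0 among all genes over 300 nt was not computed. The median log2 change was -0.24 for these members and -0.14 for all genes of that length. The 17 include the 3 YTHDF genes and several CCR4-NOT genes, so they overlap with the role groups above. The 13 members of up to 100 nt had a median of 0.02, with 5 below 0, and all such genes -0.003. The 21 members between these lengths had a median of 0.06, with 10 below 0, and all such genes -0.08. Over the 51 members the change and the log10 length had r = -0.335 and rho = -0.465, and over 8831 genes r = -0.147 and rho = -0.17, as descriptions across genes measured in the same libraries. The members with the most negative values, NOCT and CNOT11, had 5′ UTRs of 193 and 163 nt. The parts of role and length in these changes were not tested.

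**Figure D5:**
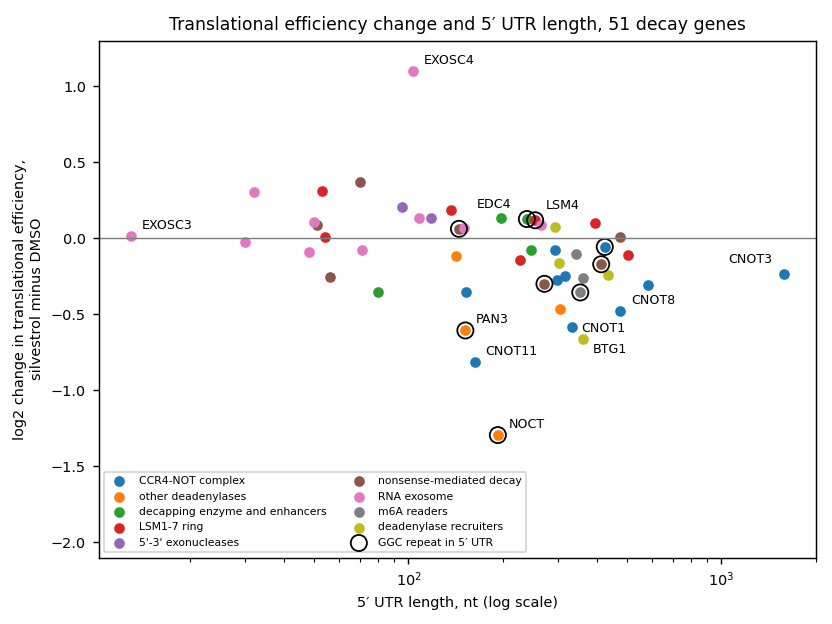
Log2 change in translational efficiency (silvestrol minus DMSO, vertical axis) against 5′ UTR length in nt (horizontal axis, log scale) of the 51 decay genes, coloured by role, with a ring around the 9 genes whose 5′ UTR holds GGCGGCGGC. Most genes beyond 300 nt lie below 0, and the lowest, NOCT, lies at 193 nt.

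Runs of GGC in the 5′ UTR were searched because such repeats can fold and have been linked to eIF4A dependence. The motif GGCGGCGGC was present on the transcribed strand of 9 members (17.6%, against 9.76% of 8831 genes): CNOT6, PAN3, NOCT, EDC4, LSM4, UPF1, SMG1, SMG5 and YTHDF3. On the opposite strand 4 members held it (7.84%, against 7.38%). A longer run of 4 CGG units in a row, which contains the shorter motif, was present in EDC4, LSM4 and YTHDF3 (5.88%, against 3.8%), and on the opposite strand in 2 members (3.92%, against 2.3%). Within the first 50 transcribed bases of the RefSeq windows (GRCh38.p14) only LSM4 of 44 matched members held the shorter motif (2.27%, counted by gene). Of all 35116 windows 1.81% held it, counted by window and including genes not tested, so the 2 shares are not of like units. In the 1 GENCODE transcript used for LSM4 the first such run lies at bases 209 to 221, outside its first 50. Other GENCODE transcripts of LSM4 were not searched, and whether both matches are the same run was not checked. The stretches of 30 bases around the repeat are shown for 4 of the 9 genes, with the repeat in capitals. NOCT and PAN3, grouped as other deadenylases, had the lowest changes in translational efficiency among the 9. EDC4 and LSM4 are the 2 genes of the decapping step among the 9, and both had values above 0. Decapping and LSM genes without the repeat lay on both sides of 0. All 4 genes shown were chosen after their values were seen.
NOCT: cgaggggccgtggtGGCGGCGGCGcccggc
PAN3: tatggtggtGGCGGCGGCGGCtcctcgggc
EDC4: cgtggtgcGCGGCGGCGGCGGaacgaacgc
LSM4: cgtgtgcaGCGGCGGCGGCGGaagtggccg
These lie at chr4:139015952-139015981 (plus strand, NOCT), chr13:28138598-28138627 (plus, PAN3), chr16:67873202-67873231 (plus, EDC4) and chr19:18323045-18323074 (minus, LSM4) of GRCh38, all within the 5′ UTR. The run was 10 bases in NOCT, 12 in PAN3 and 13 in both EDC4 and LSM4. Their changes in translational efficiency were -1.29 for NOCT, -0.61 for PAN3, 0.13 for EDC4 and 0.12 for LSM4. The other 5 genes with the repeat had -0.36 for YTHDF3, which also holds the run of 4 CGG units, -0.30 for UPF1, -0.17 for SMG1, -0.06 for CNOT6 and 0.06 for SMG5. Over the list, the 9 genes with the repeat had a median change in translational efficiency of -0.17 (range -1.29 to 0.13, 6 below 0) and the 42 without it a median of -0.08 (range -0.81 to 1.10, 24 below 0). A match is a match of letters and was not tested as a cause.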

How the data were processed

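Ribosome footprints and total RNA of KOPT-K1 cells were deposited by the authors as RPKM per Ensembl gene ID, 1 table per library. The submitters' processing notes name STAR and the build hg19 without a version or role, while how reads were counted, on which annotation, by strand or not, and what was done with multi-mapped reads is not stated. Values of genes that overlap others or have near-identical copies are uncertain for that reason.

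Symbols were found for 49395 of the 55889 IDs. Values were transformed to log2(RPKM + 0.5), which shrinks changes of low genes, and a gene was tested if its mean was 1 RPKM or more in RNA and also in footprints. Groups came from the sample titles. The tests used limma 3.58.1 in R 4.3.3 (lmFit, then eBayes with trend and robust), two-sided, with Benjamini-Hochberg adjustment over all tested genes and a threshold of 0.05: RNA on 6 libraries, footprints on 4, and translational efficiency as the interaction of assay and treatment over all 10, with precision weights estimated per assay (0.119 for footprints, 4.12 for RNA). The pipeline was tested on simulated data. Depth was estimated from the steps of low values with exon lengths of GENCODE release 29: 88.5% to 93.0% of low values (under 10.5 reads) lay within 0.05 of a whole read. Totals depend on those lengths and are rough, so no count model was run. The GENCODE annotation, on another build, otherwise gave only UTR features and sequences.

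Alternatives were other pseudocounts and filters, median and quantile scaling, a replicate block, 1 shared spread and leaving out each library. All members may be named. Values in every library are given for members called in RNA, for the 6 with the smallest p in footprints and in translational efficiency, and for the highest and lowest RNA level of each role group. Others shown by library were chosen after their values were seen, and companions are named if called. The members, lists and tests were chosen with earlier results of these data known. Of the companions, BTG2 and NUDT16 did not pass the filter and RBM8A was not matched.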

Additional observations from a re-analysis of the deposited data

How the results depend on the processing

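Without the filter on low values the members called were 0 in RNA and 1 in translational efficiency (EXOSC4), and all genes called were 0 in RNA, 0 in footprints and 271 in translational efficiency, with 1 companion called in translational efficiency. With 1 shared spread, 6 members, 4 companions and 545 of all genes were called in translational efficiency. All genes called in footprints, 5 in the reported fit (3 lower, 2 higher), were 2 with a pseudocount of 0.1 RPKM, 2 with a filter of 5 RPKM and 8 with quantile normalization (3 lower, 5 higher). Leaving out 1 library gave 0 to 1 members and 0 to 35 genes in RNA, 0 genes in footprints whichever was left out, and 8 to 44 genes in translational efficiency. Quantile normalization gave 13 genes there (9 lower, 4 higher), against 11 (9 lower, 2 higher). Where an arm was left with 1 footprint library, that library was taken to vary like the others. The median log2 change in translational efficiency over all genes was -0.0776, and -0.0134 and -0.00476 with median and quantile scaling. No called direction reversed, and the causes were not tested.

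Replicate numbers gave no clear sign of pairing. Same-numbered silvestrol and DMSO RNA libraries correlated at 0.0422, -0.327 and 0.15 in their deviations from the group mean. Of the 3 silvestrol RNA libraries 1 matched its own number best, and footprints gave -0.0332. With so few libraries a group these deviations are tied to each other, so the values cannot show that samples were unpaired. With the replicate as a block, 0 members were called in RNA (YTHDF2 adjusted p = 0.053), all genes called were 57 in RNA and 1 in footprints, and translational efficiency gave 14 genes and no member.

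Of the single-gene values under the alternatives, 881 in translational efficiency moved by less than 1 SE, which for small values can include a change of sign, 20 moved by more than 1 SE and 7 newly passed the threshold. Counting noise limits the footprint values: 1.66 to 2.38 M estimated reads a library leave genes such as EXOSC4, CNOT6L and DCP1B at under 50 reads each.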
